A study of Mus musculus with 9 samples.

Results

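The 10 genes of arginine, nitric oxide and polyamine metabolism described here were measured by RNA sequencing of mouse macrophages treated with lipopolysaccharide (LPS). They were chosen by name through their Ensembl identifiers, and all 10 were found among the 22165 gene rows of the counts table. Slc7a2 carries arginine into the cell. Nos2, Gch1, Ass1 and Asl serve nitric oxide synthesis, Arg1 and Arg2 are the arginases, and Odc1, Oaz1 and Sat1 set polyamine levels.

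The cells were bone marrow-derived macrophages, grown in culture from the marrow of C57BL/6N mice aged 6 to 16 weeks, and each of the 9 libraries was made 24 h after LPS at 100 ng/mL. No group without LPS was analysed here. The 3 libraries labelled ITA came from Irg1-/- cells that also received 1 mM itaconate, added 4 h after LPS. The 3 labelled KO came from Irg1-/- cells with LPS, and the 3 labelled WT from wild-type cells with LPS. The product of Irg1 (current symbol Acod1) makes itaconate in mitochondria; which exons the knockout lacks is not stated in the labels. Whether replicates were separate mice or cultures is not stated, and p-values therefore cover only the spread among these libraries, which may be technical.

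Arginine stands at a branch point in macrophages. Inducible nitric oxide synthase (Nos2), which LPS and interferon switch on in mouse cells, turns arginine into nitric oxide and citrulline, and it needs tetrahydrobiopterin, whose synthesis starts with Gch1. Ass1 and Asl rebuild arginine from citrulline. Arginase splits the same arginine into urea and ornithine, from which ornithine decarboxylase (Odc1) makes putrescine, the first polyamine. High Nos2 and high Arg1 are the textbook marks of classically and alternatively activated mouse macrophages.

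Gene reads per library numbered 7361671 to 20430359, and levels are given as CPM, reads per 1000000 gene reads, with library sizes scaled by the TMM method. Irg1 reads went against the labels of 4 libraries. Irg1 stood at 8.68, 0.877 and 6421 CPM in the libraries labelled ITA replicates 1, 2 and 3, at 7.53, 12.9 and 4421 CPM in those labelled KO, and at 11.3, 9.14 and 4170 CPM in those labelled WT. Low reads were found in WT replicates 1 and 2 and high reads in KO and ITA replicate 3. For a knockout label, reads from outside a deleted part would not test it. Libraries of the same knockout label nevertheless ranged from 0.877 to 6421 CPM (ITA) and from 7.53 to 4421 CPM (KO). ITA, KO and WT below mean the libraries so labelled, and this conflict bears on each direction given. The library labelled ITA replicate 3 also stood apart over all genes, its log2 CPM correlating at 0.92 on average with the others, where the remaining 8 reached 0.947 to 0.959. Mitochondrial genes took 0.709% to 1.73% of gene reads in ITA, 1.72% to 2.21% in KO and 2.08% to 2.57% in WT, lowest in ITA replicate 3. That library also had the most reads outside genes, 33.7%, where the others had 23.1% to 28.4%. All 8 macrophage markers had reads in every library. They summed to 3675 to 7257 CPM in ITA, 6697 to 7163 CPM in KO and 7438 to 9694 CPM in WT. The sum was lowest in ITA replicate 3, and every WT library lay above all ITA and KO libraries. Of 8 neutrophil markers, S100a8, S100a9 and Csf3r had reads in every library, while Ly6g, Elane and Mpo lay between 0 and 1.08 CPM. The sum of the 8 was 158 to 301 CPM in ITA, 297 to 334 CPM in KO and 287 to 375 CPM in WT. Fibroblast markers summed to 153 to 249 CPM in ITA, 176 to 206 CPM in KO and 164 to 244 CPM in WT, and B cell, T cell and mast cell markers each summed to at most 1.41 CPM. The part of these measures in the results was not tested. In bulk RNA, fewer cells of a type and less RNA per cell cannot be told apart.

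Promoter sequences show the regulatory letters in front of these genes. Of the 10 members, 5 (Gch1, Ass1, Odc1, Oaz1 and Sat1) matched the RefSeq promoter table for GRCm38.p6, which gives 250 bases before and 50 after a gene's start. Both strands were searched for the TATA box TATAAA, the E-box CACGTG and the GAS element TTCNNNGAA, which STAT factors bind. They were also searched for the C/EBP motif TTNNGNAAT, the interferon regulatory factor element (a pair of GAAA with 2 free bases between them) and the κB consensus. NF-κB, which LPS activates, binds the last of these. Gch1 (chr14:47189364-47189663, minus strand) and Oaz1 (chr10:80826406-80826705, plus strand) held a κB match and are shown for that reason, 5′ to 3′ along the gene, with the κB and TATAAA matches in capitals. No capitals overlap, and in Gch1 the TATAAA match is read on the opposite strand. Counted from the gene's start, the first printed base of that match is at -188 in Gch1 and at -3 in Oaz1.
Gch1: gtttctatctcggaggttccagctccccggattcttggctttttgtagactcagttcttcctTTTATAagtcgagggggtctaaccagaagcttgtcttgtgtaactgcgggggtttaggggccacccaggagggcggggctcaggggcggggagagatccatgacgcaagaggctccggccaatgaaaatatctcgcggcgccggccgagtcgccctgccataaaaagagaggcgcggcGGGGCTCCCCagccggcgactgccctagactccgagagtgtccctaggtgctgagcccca
Oaz1: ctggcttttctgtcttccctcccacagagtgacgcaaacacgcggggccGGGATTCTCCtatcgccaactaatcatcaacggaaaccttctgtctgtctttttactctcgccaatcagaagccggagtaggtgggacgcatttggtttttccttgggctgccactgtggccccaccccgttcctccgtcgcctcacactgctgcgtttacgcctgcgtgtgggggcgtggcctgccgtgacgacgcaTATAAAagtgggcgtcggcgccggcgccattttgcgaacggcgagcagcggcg
The κB consensus occurred in 4.51% and TATAAA in 13.6% of the 32851 promoters of that table, the interferon regulatory factor element in 3.44%, GAS in 8.3% and C/EBP in 11.5%. Ass1 (chr2:31470020-31470319, plus strand) held 1 E-box, which 7.15% of promoters hold. Odc1 and Sat1 held none of the searched letters in this window. These matches are descriptions of letters and say nothing of binding in these cells.

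**Figure D1:**
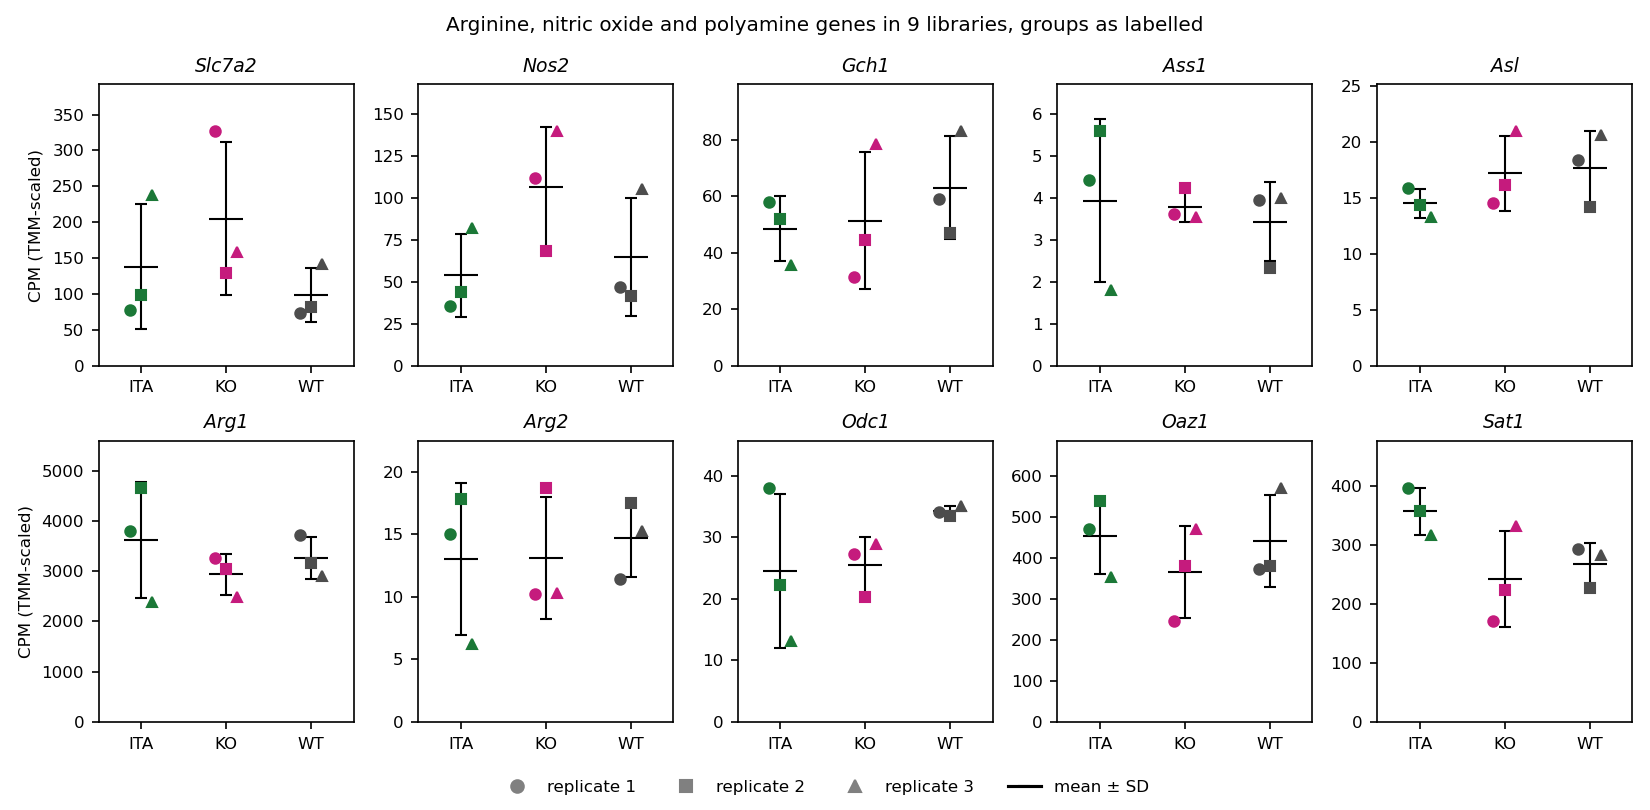
CPM (TMM-scaled, linear axes from 0) of the 10 genes in each library, with the groups ITA, KO and WT as labelled; symbols mark the replicate number and black bars the mean ± SD of 3 libraries. Nos2 is highest in replicate 3 of every group and Arg1 lowest there, and the groups overlap for most genes.

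Uptake and nitric oxide synthesis come first. Nos2 (ENSMUSG00000020826.6, chr11:78920787-78960254, plus strand, GRCm38, which is mm10) was at 35.3, 44.1 and 82.0 CPM in ITA, at 112, 68.4 and 139 CPM in KO and at 46.9, 41.5 and 105 CPM in WT, each in the order of replicates 1 to 3. Replicate 3 was the highest library of all 3 groups, and these 3 libraries are also the ones with 4170 to 6421 Irg1 CPM. No other member had replicate 3 highest in every group, and the share of all genes with that order was not counted. Within a group the highest Nos2 library lay 2.04-fold (KO) to 2.52-fold (WT) above the lowest. The means were 53.8 ± 24.8 CPM in ITA, 106 ± 35.8 CPM in KO and 64.5 ± 35.1 CPM in WT (SD, n = 3 each), and the ranges of any 2 groups overlapped.

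Slc7a2 (ENSMUSG00000031596.15, chr8:40862396-40922308, plus strand) encodes the cationic amino acid transporter CAT2, the arginine carrier that activated macrophages induce together with Nos2. It was at 77.6, 98.1 and 238 CPM in ITA, at 327, 129 and 159 CPM in KO and at 72.9, 81.7 and 141 CPM in WT. The library labelled KO replicate 1 was the highest of the 9, at 6685 reads, and its level was 4.48-fold that of the lowest, WT replicate 1. Across the 9 libraries Slc7a2 and Nos2 had the widest ranges of the 10 genes, with Nos2 highest over lowest at 3.95-fold.

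Gch1 (ENSMUSG00000037580.9, chr14:47153895-47189413, minus strand) encodes GTP cyclohydrolase, and its promoter is shown above. Its level was 58.0, 52.1 and 35.5 CPM in ITA, 31.3, 44.4 and 78.4 CPM in KO and 59.1, 47.1 and 82.9 CPM in WT. Gch1 and Nos2 had the same order of libraries in WT, and replicate 3 was the highest for both in KO. In ITA, replicate 3 was the highest for Nos2 and the lowest for Gch1. Gch1 reads per Nos2 read were highest in ITA replicate 1, at 1.64, and lowest in KO replicate 1, at 0.28. KO replicate 1 had the lowest Gch1 and the second highest Nos2.

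Ass1 (argininosuccinate synthase) and Asl (argininosuccinate lyase) were low. Ass1 had 17 to 74 reads a library, and its mean was 3.94 ± 1.94 CPM in ITA, 3.80 ± 0.38 CPM in KO and 3.44 ± 0.95 CPM in WT (SD, n = 3). Asl lay between 13.3 and 21.0 CPM in all 9 libraries, and its highest library was 1.57-fold its lowest, the smallest such ratio of the 10 genes. Its mean was 14.5 ± 1.29 CPM in ITA, 17.2 ± 3.35 CPM in KO and 17.7 ± 3.24 CPM in WT.

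The arginases differed in level and in spread. Arg1 (ENSMUSG00000019987.8, chr10:24915221-24927484, minus strand), the cytosolic arginase, was at 3803, 4660 and 2378 CPM in ITA, at 3268, 3051 and 2478 CPM in KO and at 3709, 3162 and 2903 CPM in WT. It took 0.217% to 0.449% of all gene reads, and its mean CPM ranked 22 among the 14936 genes with reads. Replicate 3 was the lowest library of every group, the reverse of Nos2. No other member had that order, and its share among all genes was not counted. Arg2 (ENSMUSG00000021125.6, chr12:79130777-79156301, plus strand), the mitochondrial arginase that LPS induces in macrophages, lay at 15.1, 17.9 and 6.24 CPM in ITA, at 10.3, 18.8 and 10.3 CPM in KO and at 11.4, 17.5 and 15.3 CPM in WT. Reads of Arg1 outnumbered those of Arg2 by 163 to 381 times in a library. This ratio of reads is not divided by transcript length. Arg2 overlaps Vti1b on the opposite strand, and the strand setting of the counting is not given in the sources used here, so Arg2 is measured less certainly.

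Nos2 reads per 1000 Arg1 reads put the 2 competing enzymes on 1 scale within a library. There were 9.28, 9.46 and 34.5 in ITA, 34.1, 22.4 and 56.3 in KO and 12.7, 13.1 and 36.1 in WT. KO replicate 3 was the highest and ITA replicates 1 and 2 the lowest, and replicate 3 again led each group. KO replicates 1 and 2 had more than ITA or WT replicates 1 and 2, and Irg1 was at most 12.9 CPM in these 6 libraries. That order leaves out every replicate 3 and was not tested, and the Irg1 reads of WT replicates 1 and 2 conflict with their label.

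**Figure D2:**
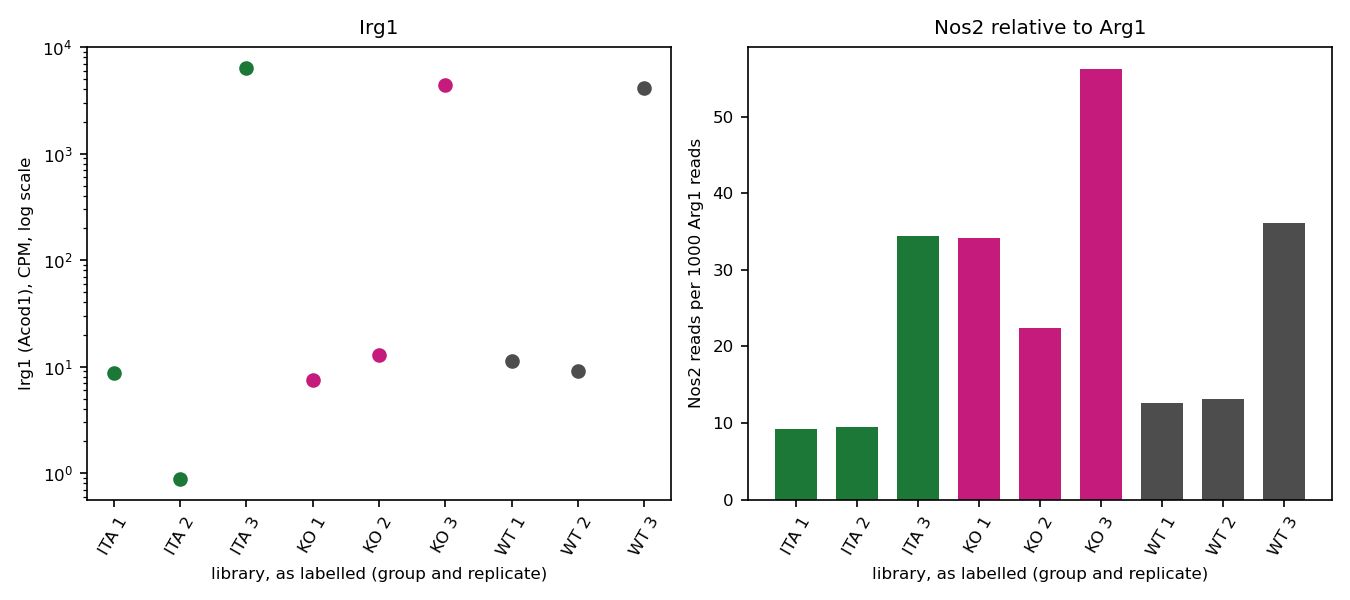
Left, Irg1 level (CPM, log axis) in each library; right, Nos2 reads per 1000 Arg1 reads (bars from 0), libraries by label. The libraries labelled replicate 3 have 4170 to 6421 Irg1 CPM and 34.5 to 56.3 Nos2 reads per 1000 Arg1 reads; KO replicate 1 reaches 34.1 with 7.53 Irg1 CPM.

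Polyamine synthesis, its brake and polyamine breakdown follow. Odc1 (ENSMUSG00000011179.7, chr12:17544794-17551505, plus strand) was at 38.0, 22.3 and 13.2 CPM in ITA, at 27.3, 20.3 and 28.8 CPM in KO and at 34.1, 33.5 and 35.1 CPM in WT. All KO libraries lay below all WT libraries, while ITA spanned both. Oaz1 (ENSMUSG00000035242.15, chr10:80826656-80829290, plus strand) encodes antizyme, whose synthesis rises when polyamines are plentiful and which sends ornithine decarboxylase to the proteasome. Its level was 469, 539 and 354 CPM in ITA, 246, 379 and 469 CPM in KO and 373, 381 and 571 CPM in WT. The pseudogene Oaz1-ps exists in the annotation, and multiply aligned reads went uncounted, so Oaz1 is measured less certainly. Sat1 (ENSMUSG00000025283.15, chrX:155213132-155216449, minus strand) encodes the acetyltransferase that starts polyamine breakdown and export. It was at 398, 357 and 317 CPM in ITA, at 172, 225 and 332 CPM in KO and at 294, 227 and 284 CPM in WT. All ITA libraries lay above all WT libraries, and KO overlapped both. Oaz1 reads per Odc1 read were highest in ITA replicate 3, at 26.8, and lowest in KO replicate 1, at 8.99.

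Adding itaconate to knockout cells was set against the knockout alone. No member passed the threshold of an adjusted p of 0.05 by edgeR, over all 10781 genes tested, of which 0% were called. All 10 members passed the filter on low counts. Nos2 was the member with the smallest p: its log2 fold change was -0.99 ± 0.42 (SE; ITA over KO), with an unadjusted p of 0.0316 and an edgeR adjusted p of 0.568. It was the 1 member of 10 at an unadjusted p under 0.05, where 8.3% of all genes were, 4.19% higher and 4.11% lower in ITA. The value was -1.43 without ITA replicate 3 and -0.75 without KO replicate 3. With pool as a term the value was -1.98 ± 0.64, which sets 1 library against 1 (ITA replicate 1 over KO replicate 3, the pair in pool 2). Its SE comes from the spread of the other libraries, and KO replicate 3 is among those whose Irg1 reads conflict with the label.

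Slc7a2 differed by -0.57 ± 0.45 on the log2 scale between ITA and KO (edgeR adjusted p = 0.76). That value is set by single libraries: it was -0.07 without KO replicate 1 and -1.24 without ITA replicate 3. Leaving out the 4 libraries whose Irg1 reads conflict with the label (ITA replicate 3, KO replicate 3, WT replicates 1 and 2) it was -1.40 ± 0.40 (adjusted p = 0.0706), and Nos2 was -1.21 ± 0.36 (adjusted p = 0.0823). Both adjusted p-values are the smallest that these genes had under any of the 18 other settings of this comparison, which reached up to 1 for Slc7a2 and 0.955 for Nos2. Neither gene was called under any of them. The fit without the 4 libraries leaves out KO replicate 3, the only KO library that shares a pool with ITA. Pool and label cannot be told apart in that fit.

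On the arginase and polyamine side of the same comparison, Sat1 was higher by 0.56 ± 0.29 on the log2 scale (adjusted p = 0.626), Oaz1 by 0.32 ± 0.31 and Arg1 by 0.30 ± 0.28, none of them called. Single libraries moved each of them: Sat1 was 0.36 without KO replicate 1 and 0.84 without KO replicate 3. Oaz1 was 0.094 without KO replicate 1 and 0.53 without KO replicate 3, and Arg1 was 0.074 without ITA replicate 2 and 0.52 without ITA replicate 3. The interval of ± 2 SE for Arg1 ran from -0.26 to 0.87. The remaining members (Gch1, Ass1, Asl, Arg2 and Odc1) lay between -0.24 and 0.05. The median over the 10 members was -0.03, against -0.02 over all tested genes, with 4 members higher and 6 lower. No member had groups that did not overlap, where 10.9% of all tested genes had, 5.61% with ITA higher and 5.29% with ITA lower.

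**Figure D3:**
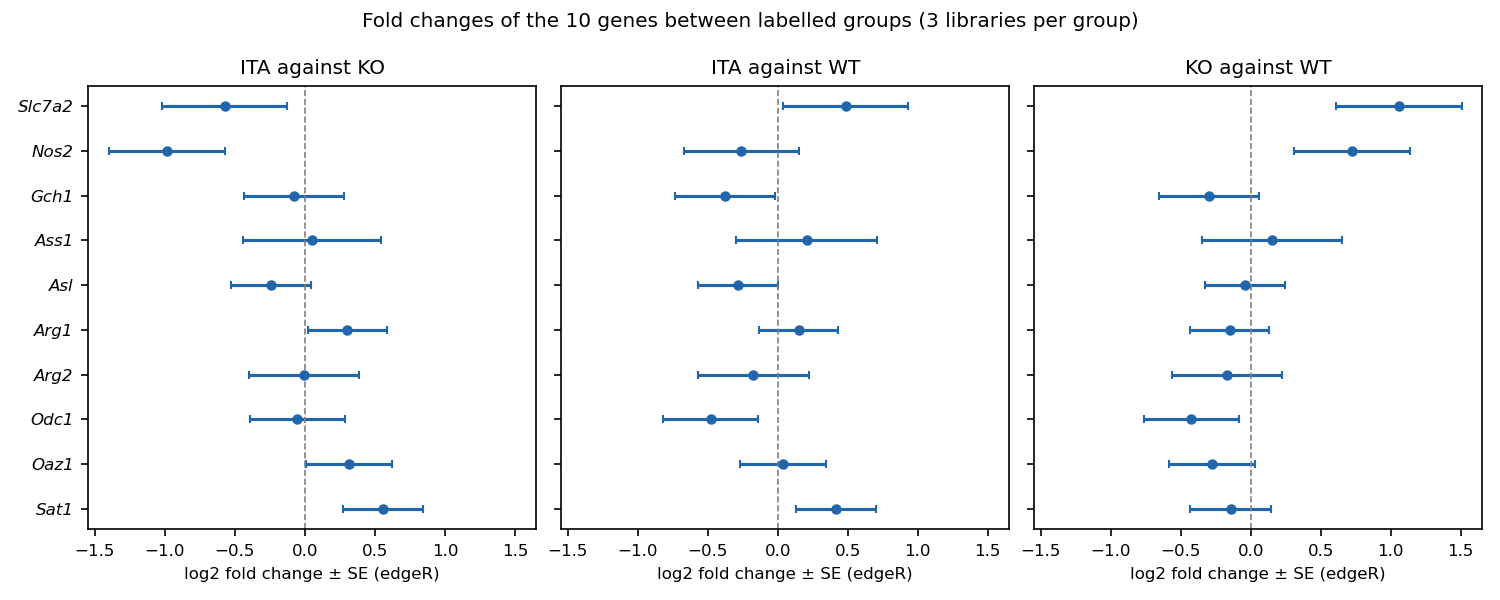
Log2 fold change ± SE (horizontal axis, edgeR) of each gene (vertical axis) for ITA against KO, ITA against WT and KO against WT, each over 3 libraries per group. Nos2 at -0.99 for ITA against KO and Slc7a2 at 1.06 for KO against WT lie farthest from 0, and none was called.

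Treated knockout cells were then set against wild type, a comparison that uses the same ITA libraries. Again 0% of the 10781 genes were called by edgeR, and none of the members was. No member had an unadjusted p under 0.05, where 8.89% of all genes did, 5.32% higher and 3.56% lower in ITA. Sat1, at 357 ± 40.3 CPM in ITA and 268 ± 36.1 CPM in WT (SD, n = 3), differed by 0.42 ± 0.29 on the log2 scale (adjusted p = 0.676). It was the 1 of 10 members whose groups did not overlap, with ITA higher, as in 7.3% of all tested genes (14.6% in either direction, 7.25% with ITA lower). Odc1 differed by -0.48 ± 0.34 (adjusted p = 0.681), and was -0.95 without ITA replicate 1 and -0.17 without ITA replicate 3. Nos2 differed by -0.26 ± 0.41 and turned to 0.28 without WT replicate 3. Slc7a2, at 0.49 ± 0.45, turned to -0.16 without ITA replicate 3. Arg1 lay at 0.15 ± 0.28. No pool holds both ITA and WT libraries, so pool and label cannot be told apart here. The members' median was -0.07, with 5 higher and 5 lower, against -0.01 over all tested genes.

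Knockout was set against wild type, sharing its KO libraries with the first comparison and its WT libraries with the second. No member was called, as no gene was (0% of 10781 by edgeR, where 3.13% had an unadjusted p under 0.05, 2.45% higher and 0.677% lower in KO). Slc7a2 had the smallest p of the members, at 205 ± 106 CPM in KO and 98.6 ± 37.3 CPM in WT (SD, n = 3). Its log2 fold change was 1.06 ± 0.45, with an unadjusted p of 0.0333 and an edgeR adjusted p of 0.995. It was 0.55 without KO replicate 1 and 1.24 within pool 1, which holds KO replicates 1 and 2 and all WT libraries. Nos2 differed by 0.73 ± 0.41, with 0.51 within pool 1, 1.27 without WT replicate 3 and -0.20 when the 4 conflicting libraries were left out. In that last fit WT replicate 3, the WT library with the most Nos2, is the only one left with its label.

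Odc1 was the 1 of 10 members whose groups did not overlap between KO and WT, with KO lower, as in 5.76% of all tested genes (10.6% in either direction, 4.85% with KO higher). Its means were 25.5 ± 4.53 CPM in KO and 34.2 ± 0.78 CPM in WT, a log2 fold change of -0.42 ± 0.34 (edgeR adjusted p = 0.995). The other members lay between -0.30 (Gch1) and 0.15 (Ass1), with Arg1 at -0.15 ± 0.28. Gch1 was -0.04 without KO replicate 1, -0.71 without KO replicate 3 and -1.11 when the 4 conflicting libraries were left out. Oaz1 was -0.05 without WT replicate 3, -0.48 without KO replicate 3 and -0.85 when those 4 were left out. The interval of ± 2 SE for Arg1 ran from -0.72 to 0.41. The members' median was -0.15, with 3 higher and 7 lower, against -0.01 over all tested genes.

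**Figure D4:**
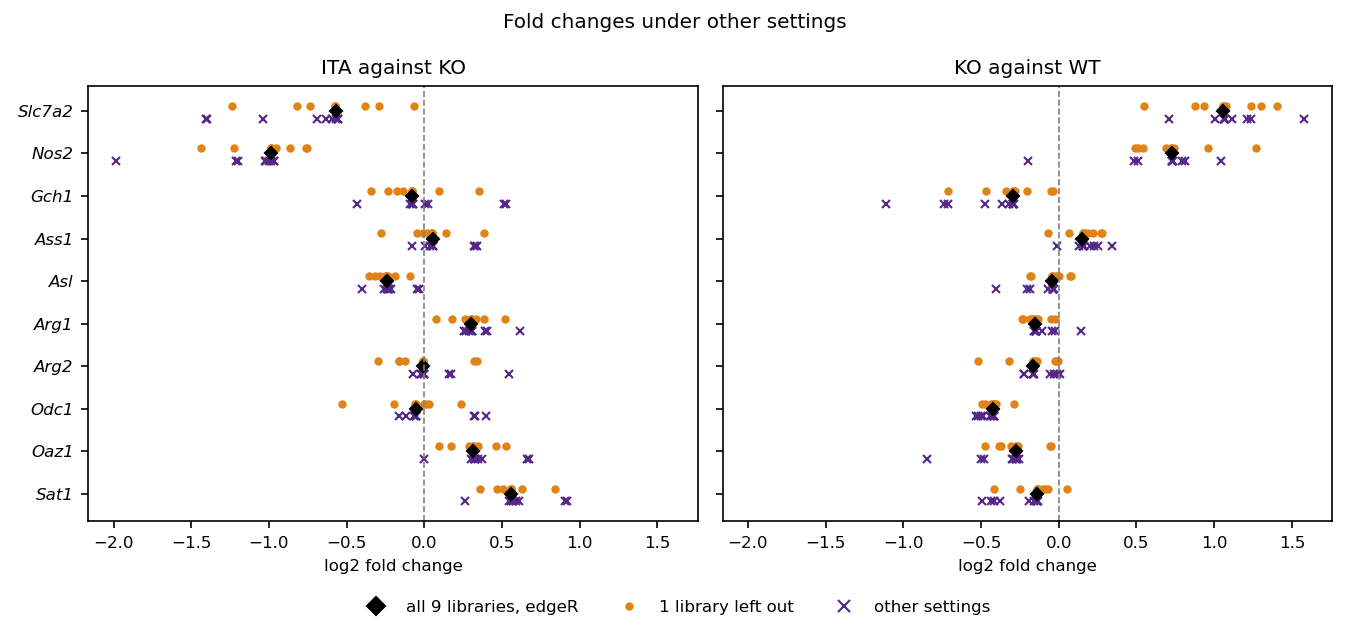
Log2 fold change (horizontal axis) of each gene for ITA against KO and KO against WT with all 9 libraries (black), with 1 library left out (orange) and under the other settings (purple). For ITA against KO, Nos2 and Slc7a2 stay below 0 throughout, between -1.98 and -0.75 for Nos2 and between -1.40 and -0.07 for Slc7a2. Gch1, Ass1, Arg2 and Odc1 fall on both sides of 0, and Oaz1 reaches -9.4e-05 with pool as a term.

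Beyond the 10 members, 43 other genes of arginine transport, nitric oxide, urea cycle, creatine, proline and polyamine metabolism were listed, and 30 passed the filter on low counts. None was called by edgeR in any comparison. Among the 30, groups did not overlap for 1 gene higher and 1 lower for ITA against KO. The counts were 1 higher and 5 lower for ITA against WT, and 0 and 3 for KO against WT. Over all tested genes the shares, higher and lower, were 5.61% and 5.29%, 7.3% and 7.25%, and 4.85% and 5.76%. Nos1 and Nos3, the neuronal and endothelial nitric oxide synthases, had at most 2 and 8 reads in a library. Otc and Cps1, which with argininosuccinate enzymes complete the liver's urea cycle, had none in any library. Prmt1 was not analysed here.

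Gatm, which transfers the amidino group of arginine to glycine in the first step of creatine synthesis, had the smallest p of the listed genes for ITA against both KO and WT. It was at 288, 499 and 463 CPM in ITA, at 107, 275 and 199 CPM in KO and at 151, 185 and 151 CPM in WT. Every ITA library lay above every KO and WT library, by the narrowest margin between ITA replicate 1 and KO replicate 2. All ITA libraries lay above all KO libraries in 5.61% of tested genes, and above all WT libraries in 7.3%. The log2 fold change of Gatm was 1.10 ± 0.34 for ITA against KO (edgeR adjusted p = 0.507) and 1.36 ± 0.35 for ITA against WT (edgeR adjusted p = 0.512). For ITA against WT it was called by DESeq2 (adjusted p = 0.0137) and by edgeR when low genes were kept (adjusted p = 0.0302), and under the other settings the adjusted p reached up to 1. Pool and label cannot be told apart for ITA against WT. For ITA against KO Gatm was called under no setting, and lay between 0.53 with pool as a term and 1.44 without KO replicate 2. The pool term sets only ITA replicate 1 over KO replicate 3.

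Of the tetrahydrobiopterin genes, Spr (sepiapterin reductase, the last step of synthesis) was at 19.3, 8.44 and 6.45 CPM in ITA, at 11.7, 13.6 and 14.5 CPM in KO and at 19.7, 20.7 and 21.1 CPM in WT. All ITA and all KO libraries lay below the lowest WT library, ITA replicate 1 only just. The same held in 7.25% of all tested genes for ITA below WT and in 5.76% for KO below WT. The log2 fold change of Spr was -0.84 ± 0.37 for ITA against WT and -0.63 ± 0.36 for KO against WT (edgeR adjusted p = 0.549 and 0.995). A pseudogene, Spr-ps1, exists in the annotation, so Spr, like Oaz1, is measured less certainly. Qdpr, which recycles tetrahydrobiopterin, differed by 0.64 ± 0.31 for ITA against KO (adjusted p = 0.604).

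Sms, which makes spermine from spermidine, was at 28.5, 29.7 and 31.2 CPM in ITA, at 29.9, 29.0 and 39.3 CPM in KO and at 45.2, 42.0 and 42.0 CPM in WT. The WT libraries lay above all others, as WT did above ITA in 7.25% and above KO in 5.76% of all tested genes. Sms differed by -0.53 ± 0.25 for ITA against WT and by -0.40 ± 0.25 for KO against WT (edgeR adjusted p = 0.568 and 0.995). A pseudogene, Sms-ps, exists in the annotation, so Sms is also measured less certainly. Eif5a, the translation factor that carries the spermidine-derived residue hypusine, differed by -0.58 ± 0.31 for KO against WT and by 0.52 ± 0.31 for ITA against KO, which share the KO libraries. Of the 13 tested polyamine genes that are not members, 8 lay lower for ITA against KO, 12 for ITA against WT and 12 for KO against WT, with medians of -0.03, -0.30 and -0.30 on the log2 scale. Of all 10781 tested genes, 5562, 5489 and 5509 lay lower, with medians of -0.02, -0.01 and -0.01. ITA against WT and KO against WT share the WT libraries, and none of the 13 genes was called by edgeR.

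**Figure D5:**
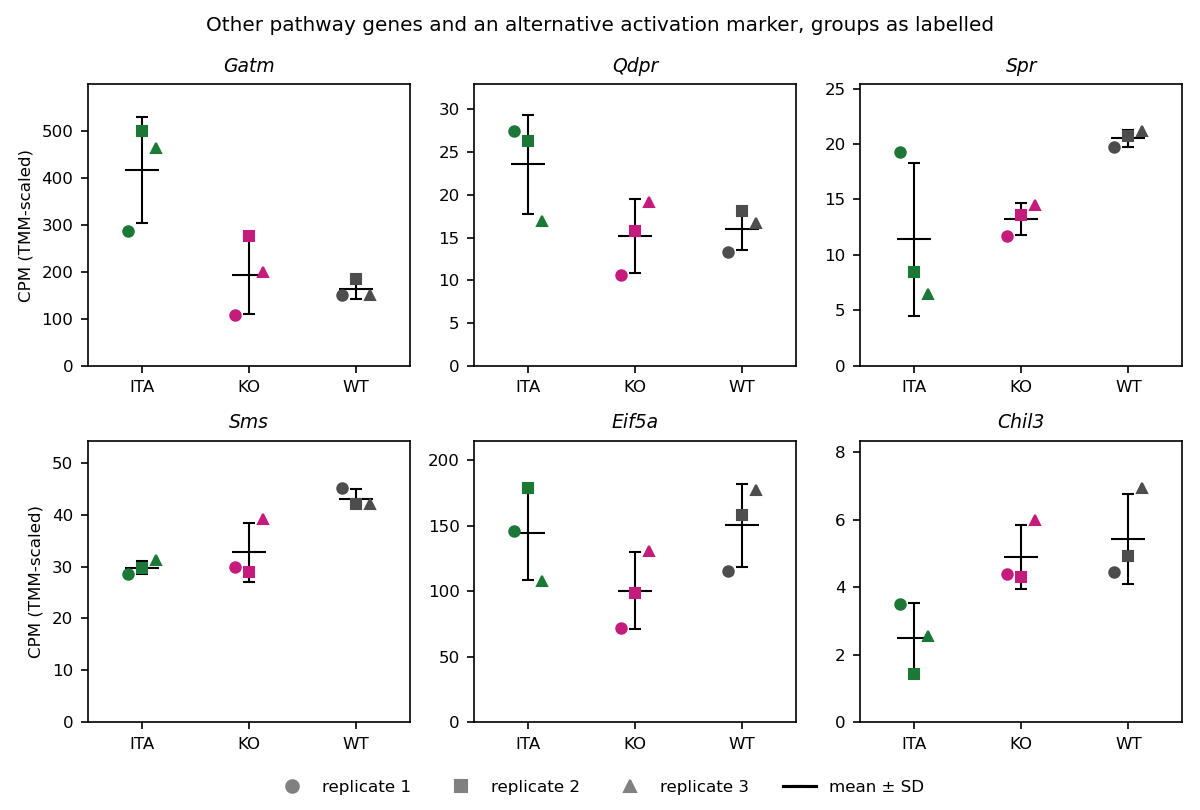
CPM (TMM-scaled, linear axes from 0) of 6 listed genes that are not members, by labelled group ITA, KO and WT, with symbols for the replicate number and black bars for the mean ± SD of 3 libraries. Gatm is higher in all ITA libraries than elsewhere, and Spr and Sms are highest in WT.

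The genes whose profile over the 9 libraries lay nearest to that of Nos2 were Tec, Myof, Crcp, Abcc1 and Atf7, among 7290 genes with a mean of at least 10 CPM. Likeness was the root mean square difference of centred log2 values, which was 0.36 for Tec and 0.41 for Atf7, where the profile of Nos2 itself departed from its mean by 0.67. Tec, a tyrosine kinase, was at 13.0, 22.5 and 37.6 CPM in ITA, 37.6, 43.8 and 38.7 CPM in KO and 26.3, 19.6 and 37.5 CPM in WT. For Arg1 they were Nsmce1, Gramd1a, Stard8, Cmklr1 and Gtf3c2, at 0.11 to 0.14, where Arg1 itself departed from its mean by 0.29. A gene with the same level in all 9 libraries would have ranked 468 for Arg1 and 1340 for Nos2, so many genes lie near either profile.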

How the data were processed

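The authors deposited raw counts of reads per gene for 9 libraries. Messenger RNA was captured and copied with barcoded oligo-dT primers, pooled and made into strand-specific libraries, per the labels' protocols. STAR, HTSeq and mm10 are named in the submitters' processing notes; versions and annotation release are not given in the sources used here. No molecular identifier is mentioned, so copies of 1 molecule count separately and depth limits cover counting error only: 3 reads correspond to 0.147 to 0.408 CPM. The number before the barcode in the description label was read as a pool, which the labels do not define. The 5 summary lines of the counter entered neither library sizes nor tests, and reads outside genes made up 23.1% to 28.4% of a library, and 33.7% of ITA replicate 3.

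Symbols were assigned to 21745 of 22165 identifiers, and positions come from GENCODE M21 (GRCm38). Members and lists were chosen with earlier results of these data known. Tests were two-sided quasi-likelihood F tests in edgeR 4.0.16 under R 4.3.3, fitted to all 9 libraries with group as the only term, library sizes scaled by TMM (the trimmed mean of M-values) and a filter with a minimum count of 10, and p-values were adjusted by Benjamini-Hochberg over the 10781 genes tested. On simulated data with 100 genes changed 4-fold and 100 changed 2-fold, edgeR recovered 75 and 6 for ITA against KO over 10598 genes. It recovered 77 and 8 for ITA against WT over 10617, and 72 and 11 for KO against WT over 10590. False calls numbered 3, 6 and 3 in that order, and these counts hold for the simulated data only. Alternatives used DESeq2 1.42.0, limma-voom (limma 3.58.1), other scaling and filters, pool and replicate terms, and libraries left out. The ratio of Nos2 to Arg1 was scaled to 1000 Arg1 reads. Named genes were the 10 members, Irg1, the 4 listed genes of smallest p per comparison, and the 5 genes nearest to Nos2 and to Arg1 in profile (log2 of CPM + 0.5). The genes at 0 or near 0 reads, Prmt1 and the markers Il4ra, Pdcd1lg2, Klf4 and Tgm2 were named outside that rule.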

Additional observations from a re-analysis of the deposited data

How the results depend on the processing

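No member was called under the 18 alternative settings run for ITA against KO, the 17 for ITA against WT or the 19 for KO against WT, and 12 of the 30 member values kept their sign throughout. By edgeR 0 genes were called in each comparison, whereas 895 (ITA against KO), 958 (ITA against WT) and 337 (KO against WT) had an unadjusted p under 0.05. DESeq2 called 12, 14 and 1 genes and limma-voom 0 in each. Without a filter 80 genes were called for ITA against KO and 92 for ITA against WT. Leaving out the 4 libraries whose Irg1 reads conflict with the label, 217, 1 and 2 were called. Irg1, whose reads chose those libraries, is the 1 gene for ITA against WT and 1 of the 2 for KO against WT, and WT is then a single library, assumed to vary like the other groups. Without the third library of every group 59 were called for ITA against KO. Like the fit without the 4 libraries, this leaves out KO replicate 3, the only KO library that shares a pool with ITA. Pool and label cannot be told apart for ITA against KO in either fit. Among the other pathway genes, DESeq2 and the unfiltered fit each called 1, Gatm, for ITA against WT. The cause was not tested.

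Signs turned as follows on the log2 scale. Without the 4 libraries, ITA against KO gave 0.52 for Gch1, 0.16 for Arg2 and 0.32 for Odc1. ITA against WT gave -0.70 for Slc7a2, 0.10 for Arg2 and -0.19 for Oaz1, and KO against WT gave -0.20 for Nos2, -0.013 for Ass1 and 0.14 for Arg1. Without the third libraries, ITA against KO gave 0.53 for Gch1, 0.17 for Arg2 and 0.32 for Odc1, ITA against WT gave 0.054 for Gch1 and 0.18 for Arg2, and KO against WT gave 0.0088 for Arg2. With pool as a term, ITA against KO gave 0.54 for Arg2, 0.40 for Odc1 and -9.4e-05 for Oaz1, and limma-voom gave 0.0014 for Gch1 and -0.077 for Ass1. For ITA against KO the pool term rests on ITA replicate 1 and KO replicate 3 alone, and no pool holds both ITA and WT libraries.

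With 1 library left out, 0 to 6 genes were called for ITA against KO and 0 to 4 for ITA against WT, most without ITA replicate 1. For ITA against KO the range was -0.34 to 0.35 for Gch1, -0.28 to 0.39 for Ass1, -0.30 to 0.34 for Arg2 and -0.53 to 0.24 for Odc1. For ITA against WT it was -0.16 to 0.83 for Slc7a2, -0.69 to 0.28 for Nos2, -0.13 to 0.56 for Ass1, -0.078 to 0.38 for Arg1, -0.47 to 0.16 for Arg2 and -0.10 to 0.27 for Oaz1. For KO against WT it was -0.069 to 0.28 for Ass1, -0.18 to 0.080 for Asl, -0.42 to 0.055 for Sat1 and -0.088 to 0.55 for Gatm.

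Same-numbered libraries did not deviate together in every pair, with correlations from -0.183 to 0.281, and 4 of 9 libraries correlated best with their own number. With the replicate block 0 genes were called in each comparison and Gch1 for ITA against KO was 0.024.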

Other observations

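Markers of alternative activation, which in mouse macrophages often accompany high Arg1, were looked at beside it. Of 9 listed genes, 6 passed the filter on low counts and edgeR called none in any comparison. Retnla, the secreted protein Fizz1, had 0 reads in every library, Mgl2 at most 0.548 CPM and Clec10a at most 1.10 CPM, although Arg1 took 0.217% to 0.449% of gene reads. Chil3, the chitinase-like protein Ym1, was at 3.51, 1.43 and 2.54 CPM in ITA, at 4.40, 4.31 and 6.00 CPM in KO and at 4.44, 4.92 and 6.96 CPM in WT. Every ITA library lay below every other one, as ITA did below KO in 5.29% and below WT in 7.25% of all tested genes. The log2 fold changes of Chil3 were -0.96 ± 0.46 (SE) against KO and -1.11 ± 0.46 against WT (edgeR adjusted p = 0.597 and 0.542). Chil3 rested on 13 to 90 reads a library. Pdcd1lg2, the ligand PD-L2, lay the other way, by 0.95 ± 0.59 against KO and 0.83 ± 0.59 against WT (edgeR adjusted p = 0.691 and 0.681). It was at 2.59, 2.19 and 6.87 CPM in ITA, at 1.51, 2.65 and 1.87 CPM in KO and at 3.001, 1.80 and 1.74 CPM in WT, so that the groups overlapped and ITA replicate 3 was the highest.

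Il4ra, the interleukin-4 receptor chain, was at 241, 188 and 54.6 CPM in ITA, at 282, 264 and 128 CPM in KO and at 264, 292 and 125 CPM in WT. Replicate 3, with 4170 to 6421 Irg1 CPM, was the lowest library of each group, as for Arg1. None of the other tested markers had that order, and its share among all genes was not counted. Replicate 3 was instead the highest library for Klf4 in ITA and KO, for Chil3 in KO and WT and for Tgm2 in KO. Mrc1, the mannose receptor, was at 49.0, 38.7 and 64.0 CPM in ITA, at 87.9, 54.5 and 34.7 CPM in KO and at 42.6, 53.6 and 16.6 CPM in WT, and was lowest in replicate 3 of KO and WT and highest there in ITA. Il4ra and Pdcd1lg2 were singled out after their values were seen.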
